A study of Homo sapiens with 12 samples.

Results

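The imprinted genes MAGEL2, NDN, SNRPN, PEG3, PEG10, MEST, IGF2, H19, MEG3 and DLK1, were followed through total and polysome RNA of 2 HEK293T lines, shCtrl and shPRRC2B. HEK293T cells derive from human embryonic kidney. They are 10 of the 59385 gene names of the count table, and all 10 are listed in it. They were taken by name, and the set was chosen by a measured value in part, the near absence of MAGEL2 from shCtrl total RNA. The total RNA values of MAGEL2 are therefore given without a test. The other members were listed as imprinted genes.

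Both lines carried a doxycycline (Dox)-inducible shRNA and were harvested after 36 h of induction. The shCtrl line expressed a non-silencing shRNA and the shPRRC2B line an shRNA against PRRC2B, an RNA binding protein, and the study asked how loss of PRRC2B alters translation. Each line was a stable line grown from a single clone, so the shRNA and the clone cannot be told apart in any value below. Polysome RNA was pooled from the heavy fractions of a sucrose gradient, total RNA came from the lysate, and both were enriched for poly(A). With 3 biological replicates per line and fraction there were 12 libraries, whose totals lay between 9855734 and 20837542 read pairs.

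At an imprinted gene, the copy inherited from a single parent is transcribed, a choice that usually rests on DNA methylation set in the germ line. MAGEL2, NDN, SNRPN and MKRN3 are transcribed from the paternal copy of 15q11-q13, the region lost in Prader-Willi syndrome, while UBE3A in the same region is silent on the paternal copy in neurons. Imprinted genes often lie in clusters that share a control region, as IGF2 and H19 do on 11p15, DLK1 and MEG3 on 14q32, and PEG3 and ZIM2 on 19q13.

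The targeted gene followed the labels. PRRC2B stood at 281 ± 28.7 CPM in shCtrl total RNA and at 100 ± 2.32 in shPRRC2B total RNA (SD, n = 3), where CPM is the usual library-normalised count, read pairs scaled to a common library size by TMM, a scaling that assumes that most genes do not change. Its log2 change was -1.49 in total RNA (SE 0.17, edgeR adjusted p = 4.25e-06). All 7 listed marker genes of HEK293 cells passed the filter on low counts, with a summed level of 579 to 651 CPM in shCtrl total RNA and 400 to 417 CPM in shPRRC2B total RNA. Of 8 listed markers of blood, liver, fibroblast, endothelial and epidermal cells, 2 passed the filter, and their list summed to between 14.99 and 19.4 CPM in shCtrl total RNA and between 30.8 and 34.2 CPM in shPRRC2B total RNA. Of the 8, 1 was at 0 in every library. COL1A1, a fibroblast collagen, rose by 0.89 on the log2 scale (edgeR adjusted p = 6.32e-04). In the HEK293 list NEFL (-1.004), NEFM (-1.57) and INA (-0.73) fell on the log2 scale in total RNA and LIN28B rose (1.07). The rest of the list did not fall there. The log2 change was 0.25 for PAX2 (edgeR adjusted p = 0.319), 0.42 for SALL1 (0.0187) and 0.006 for EYA1 (0.987). The lower sum in total RNA therefore does not hold for every gene of the list. In polysome RNA the HEK293 list summed to 220 to 236 CPM in shCtrl and 91.5 to 106 CPM in shPRRC2B, while the markers of other cells overlapped, at 3.77 to 5.34 and 4.47 to 5.67 CPM. The part of these values in the results was not tested. In bulk RNA, fewer cells that express a gene and less RNA per cell cannot be told apart.

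The start regions of 3 genes and a coding site of PEG10 are shown first, because MAGEL2 and MKRN3, which differ between the lines, lie beside NDN, which had no count in either. From the RefSeq table (GRCh38.p14), the 30 bases just before the annotated start are given 5′ to 3′ on the gene's strand with each CG, the dinucleotide that carries DNA methylation, in capitals. MKRN3 is at chr15:23565644-23565673 on the plus strand, MAGEL2 at chr15:23647868-23647897 and NDN at chr15:23687306-23687335, both on the minus strand.
MKRN3: caaaagcaggggggaaggaaaaagagatgc
MAGEL2: ctgCGgaaagctgCGgagCGagcagcactc
NDN: CGctgCGgaaggCGcCGCGCGcagcaaCGc
The 30 bases hold 0, 3 and 7 CG, a sequence that reads the same on both strands. Over the whole window of 300 bases around the start, MAGEL2 holds 9 CG, and 58.4% of the 35116 windows in the table hold at least as many. MKRN3 holds 15 (48.9% of windows) and NDN 35 (14.1%), against a median of 14. Of the 10 members, 6 have such a window. DNA methylation was not measured here, and these letters are a description of the reference sequence.

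PEG10 is translated with a programmed ribosomal frameshift at a slippery heptamer. The heptamer occurs 1 time in the PEG10 exons of GRCh38, shown here in capitals within chr7:94664499-94664528 on the plus strand.
PEG10: tcttcgccggcGGGAAACtccccggccccg
Counts on the gene name do not separate the frames.

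MAGEL2, a MAGE family protein that works with an E3 ubiquitin ligase in endosomal sorting, was present in 1 line. Its single exon lies at chr15:23643549-23647867 on the minus strand (GRCh38, GENCODE 44) and shares no base with the exons of another gene. All 3 shCtrl total libraries and all 3 shCtrl polysome libraries held 0 MAGEL2 read pairs. The shPRRC2B total libraries held 327, 409 and 321, and the shPRRC2B polysome libraries 49, 31 and 33. Every shPRRC2B library therefore lay above every shCtrl library in both fractions.

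In CPM, MAGEL2 stood at 14.6 ± 0.613 in shPRRC2B total RNA and at 3.44 ± 0.677 in shPRRC2B polysome RNA (SD, n = 3). The 0 counts of shCtrl allow up to 0.0439 CPM over its 3 total libraries and 0.104 CPM over its 3 polysome libraries, taking 3 counts as the limit of a count of 0, which covers counting error only. Against these limits MAGEL2 was at least 333-fold higher in shPRRC2B total RNA, a difference given as a description since it chose the set. In polysome RNA it was at least 33.4-fold higher, where 18.4% of the 18166 tested genes were called up. This too is a description, because MAGEL2 was chosen for its absence from the same clone and passed the filter on low counts through the shPRRC2B libraries. Throughout, a called gene has a log2 change of more than 0.5 in size and a Benjamini-Hochberg adjusted p below 0.05.

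Within the shPRRC2B line, MAGEL2 was lower in polysome than in total RNA, by -2.08 on the log2 scale (SE 0.25, edgeR adjusted p = 3.36e-06). The call is a common one, since 42.3% of tested genes were called down between these fractions and 78.9% were called in either direction. The size of the difference depends on the scaling. It was -3.02 when libraries were scaled by their total counts, which shifts the median of all genes by -0.94, and -0.90 when each library's dependence on transcript length was taken out. With 0 counts in both fractions of shCtrl, MAGEL2 has no polysome-to-total ratio in that line and no TE change (the change of that ratio between the lines).

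**Figure D1:**
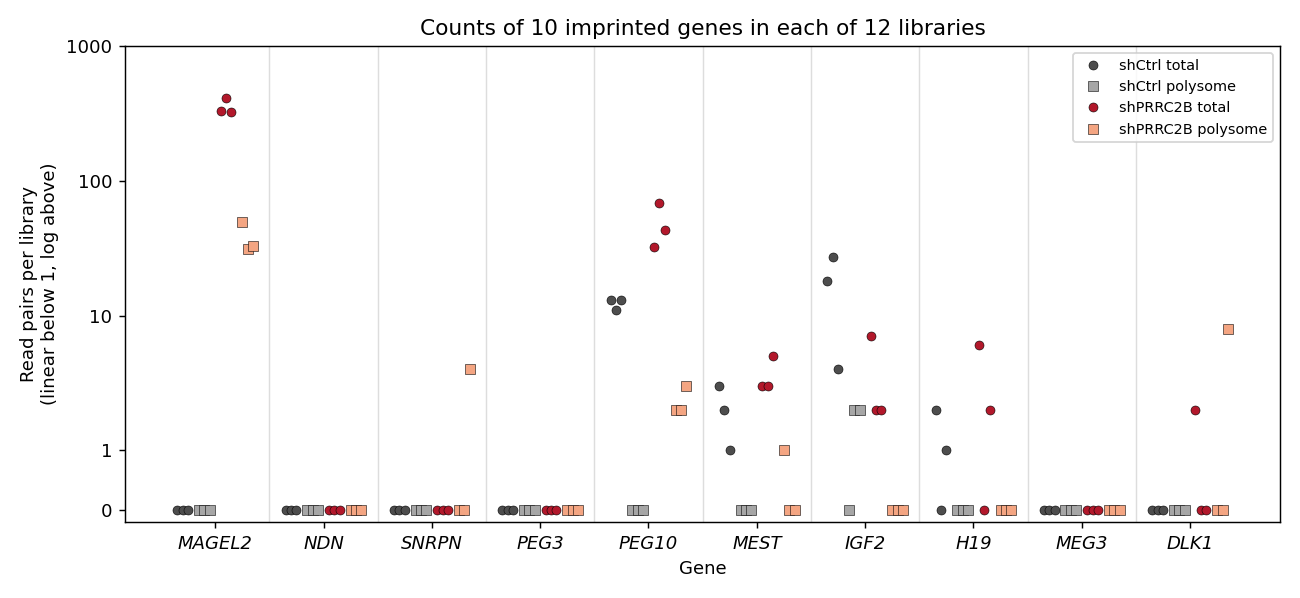
Read pairs of each of the 10 imprinted genes in each of the 12 libraries, on an axis that is linear below 1 and logarithmic above; circles are total RNA, squares polysome RNA, grey shCtrl and red shPRRC2B. MAGEL2 is at 0 in all shCtrl libraries and between 31 and 409 in the shPRRC2B libraries, while NDN, PEG3 and MEG3 stay at 0 throughout.

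In the plot of counts by library, NDN and SNRPN, members of the same region, were at or near 0. NDN encodes necdin, another MAGE family protein, lies at chr15:23685400-23687305 on the minus strand, and had 0 counts in all 12 libraries. SNRPN, which encodes a splicing protein (chr15:24823637-24978723, plus strand), had 4 read pairs in shPRRC2B polysome replicate 3 and 0 in the other 11 libraries. Of its 3408 exon bases, 1496 are shared with other genes such as SNURF, and pairs that fall on several genes were not counted. NPAP1 of the same region, which shares no exon base with another gene, was also at 0 in every library. Over all 12 libraries, 0 counts allow up to 0.0148 CPM.

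MKRN3, a RING finger protein whose loss advances puberty, was the nearest tested gene, 82.2 kb from the start of MAGEL2. It had 86, 85 and 37 read pairs in shCtrl total RNA and 161, 238 and 218 in shPRRC2B total RNA. In polysome RNA it had 16, 6 and 17 against 110, 88 and 157. The lines did not overlap in CPM in either fraction, with shCtrl at 2.56 to 3.25 and shPRRC2B at 7.51 to 9.53 in total RNA.

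MKRN3 rose by 1.51 on the log2 scale in total RNA (SE 0.27, edgeR adjusted p = 4.37e-04) and by 3.01 in polysome RNA (SE 0.33, edgeR adjusted p = 2.17e-06). Its TE change was 1.51 (SE 0.43, edgeR adjusted p = 0.0159), and 10.7% of tested genes were called up in TE. That call was lost without shCtrl polysome replicate 2 (edgeR adjusted p = 0.0507) and without shPRRC2B polysome replicate 3 (0.0551). With cultures within each line as a block, the total RNA change was 1.19. In that fit the difference between the lines rests on replicate 1 of each line. Of the MKRN3 exon bases, 1795 of 7123 are shared with a gene known by its identifier alone (ENSG00000260978).

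Per kilobase of the canonical transcript, MAGEL2 and MKRN3 stood at similar levels in shPRRC2B total RNA, 3.39 ± 0.142 and 3.59 ± 0.426 CPM per kb, a gap smaller than the SD of MKRN3. UBE3A, the ubiquitin ligase lost in Angelman syndrome, was at 7.67 ± 0.488 CPM per kb there. The annotated exons span 7123 bases for MKRN3, whose canonical transcript has 2371, and 19033 for UBE3A, whose canonical transcript has 8728. Longer forms would lower both values, so the likeness of MAGEL2 and MKRN3 rests on the transcript used. In total RNA the UBE3A log2 change was 0.18 (SE 0.14, edgeR adjusted p = 0.350) and the lines overlapped, at 56.6 to 62.8 CPM in shCtrl and 62.2 to 70.2 in shPRRC2B. In polysome RNA UBE3A fell from 17.0 ± 1.82 to 7.79 ± 1.91 CPM, a log2 change of -1.12 (SE 0.17, edgeR adjusted p = 5.18e-05). UBE3A overlaps SNHG14, the long RNA antisense to it, which had 10 read pairs in shCtrl total RNA and 5 in shPRRC2B total RNA.

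**Figure D2:**
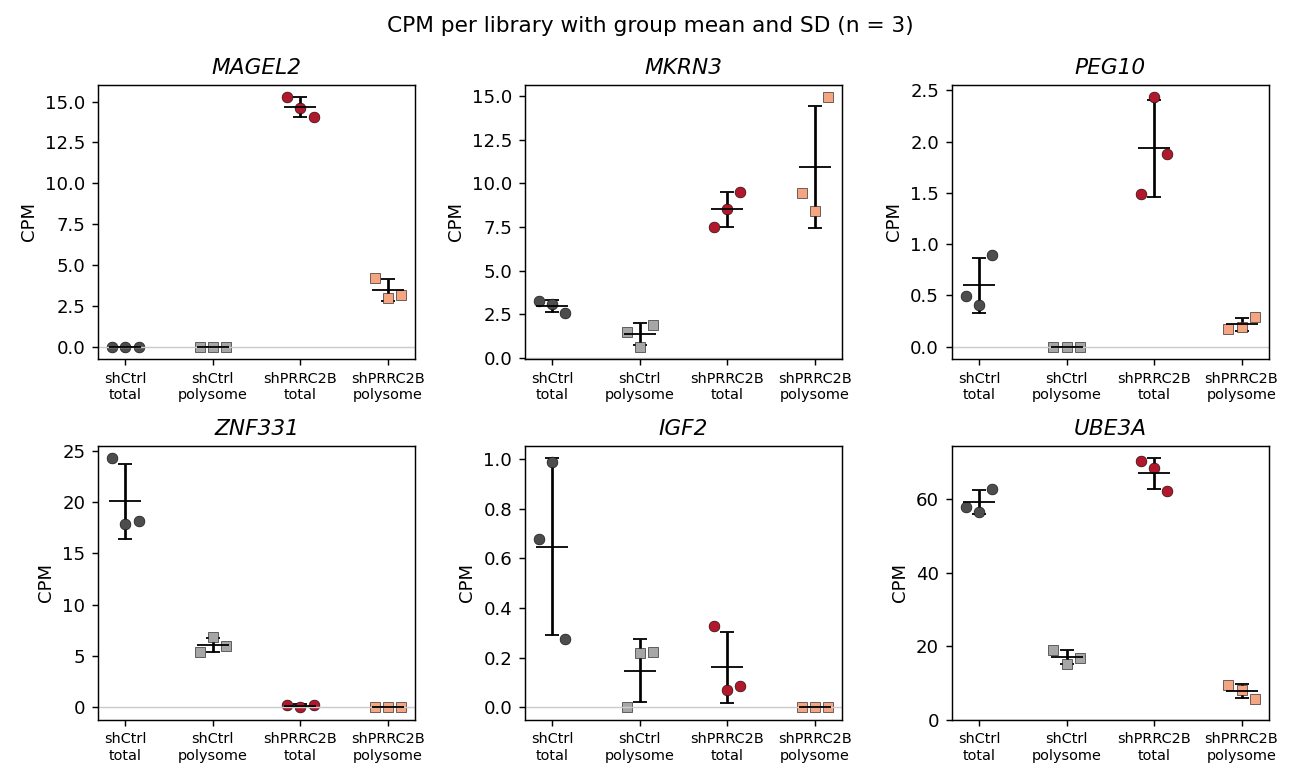
CPM of 6 imprinted genes in each library (points), with the group mean and SD (bars, n = 3), for total (circles) and polysome RNA (squares) of both lines. MAGEL2, MKRN3 and PEG10 are higher in shPRRC2B total RNA, ZNF331 and IGF2 have lower means there, and UBE3A overlaps between the lines in total RNA.

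PEG10, a retrotransposon-derived gene on 7q21 (chr7:94656325-94669695, plus strand), was the only member besides MAGEL2 to pass the filter on low counts. It had 13, 11 and 13 read pairs in shCtrl total RNA and 32, 68 and 43 in shPRRC2B total RNA. In CPM these were 0.491, 0.402 and 0.898 against 1.49, 2.43 and 1.88, so the lines did not overlap. PEG10 rose by 1.75 on the log2 scale (SE 0.47, edgeR adjusted p = 0.00930), where 14.9% of tested genes were called up. It passed the filter through shPRRC2B total RNA, the group where it is high. When every gene with at least 1 count was tested, the change was 1.70 (edgeR adjusted p = 0.0141). The summed counts, 143 against 37, gave a ratio of 3.66 (95% interval 2.53 to 5.40, counting error only). The call was lost without shCtrl total replicate 1 (edgeR adjusted p = 0.0666), shCtrl total replicate 2 (0.0743) or shPRRC2B total replicate 2 (0.0670). With cultures within each line as a block, which rests on replicate 1 of each line, the change was 1.60.

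In polysome RNA PEG10 had 0 read pairs in every shCtrl library and 2, 2 and 3 in the shPRRC2B libraries. It was at least 2.07-fold higher in shPRRC2B (edgeR adjusted p = 0.0221, and 0.0399 when every gene with at least 1 count was tested). PEG10 was among the tested genes through its total RNA counts. The call rested on 7 read pairs and was lost without any single shCtrl polysome replicate (edgeR adjusted p between 0.0512 and 0.0551) and without shPRRC2B polysome replicate 3 (0.0575). The TE change was not called (edgeR adjusted p = 0.194; DESeq2 adjusted p = 0.400).

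Within each line PEG10 was lower in polysome than in total RNA. In shCtrl, 37 pairs in total RNA stood against 0 in polysome RNA. The total RNA level was 5.22 times the limit of 0 counts (edgeR adjusted p = 4.22e-04, 39.8% of tested genes called down and 72.3% called in either direction). In shPRRC2B the log2 difference was -3.13 (SE 0.59, edgeR adjusted p = 1.39e-04). Per kilobase of its canonical transcript of 2585 bases, PEG10 was at 0.749 ± 0.183 CPM per kb in shPRRC2B total RNA, below MAGEL2 in each library of that group. Its annotated exons span 6689 bases, so longer forms would lower that value.

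The tested neighbours of PEG10 were not called in total RNA. SGCE, a sarcoglycan gene that starts 0.247 kb away on the other strand, shares 219 exon bases with PEG10. Its log2 change was -0.30 in total RNA (SE 0.14, edgeR adjusted p = 0.122). CASD1, 147 kb away, changed by 0.17 (edgeR adjusted p = 0.448), and PPP1R9A, 251 kb away, by 0.33 (edgeR adjusted p = 0.201).

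The remaining members were at or near the limit of detection and did not pass the filter on low counts. IGF2, the fetal growth factor (chr11:2129112-2158391, minus strand), had 18, 27 and 4 read pairs in shCtrl total RNA and 7, 2 and 2 in shPRRC2B total RNA. In CPM the lines overlapped, with 0.276 to 0.986 against 0.0715 to 0.327. The ratio of the summed counts, 11 against 49, was 0.212 (95% interval 0.0996 to 0.414, counting error only), which leaves out the spread between libraries. When every gene with at least 1 count was tested, the log2 change of IGF2 was -2.06 (edgeR adjusted p = 0.0752). In some fits that left out 1 library, IGF2 passed the filter through shCtrl total RNA, the group where it is high. It was called down in these (edgeR adjusted p between 0.0249 and 0.0497), except without shPRRC2B total replicate 2 (0.196) or 3 (0.171). Pairs shared with INS-IGF2 were not counted, and 3175 of the 7146 IGF2 exon bases are shared with other genes.

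H19, a long noncoding RNA from the maternal copy beside IGF2 (chr11:1995166-2004552, minus strand), had 2, 0 and 1 read pairs in shCtrl total RNA and 6, 0 and 2 in shPRRC2B total RNA. The ratio was 2.52 (95% interval 0.605 to 14.8), so no difference was detectable at this depth. H19 had 0 counts in all 6 polysome libraries.

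MEST, a gene of the hydrolase fold family on 7q32 (chr7:130486171-130506465, plus strand), had 3, 2 and 1 read pairs in shCtrl total RNA and 3, 3 and 5 in shPRRC2B total RNA. The ratio was 1.73 (95% interval 0.588 to 5.71), and a single pair was counted in the 6 polysome libraries.

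DLK1, a Notch-related surface protein on 14q32 (chr14:100725705-100738224, plus strand), had 2 read pairs in shPRRC2B total replicate 1 and 8 in shPRRC2B polysome replicate 3. The other 10 libraries held 0. The 4 read pairs of SNRPN came from that same polysome library, so the highest values of both genes rest on 1 library. MEG3, a long noncoding RNA beside DLK1 (chr14:100779410-100861031, plus strand), and PEG3, a zinc finger protein of 19q13 (chr19:56810077-56840728, minus strand), had 0 counts in all 12 libraries. Of the PEG3 exon bases, 4977 of 9769 are shared with other genes such as ZIM2.

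Beyond the members, 56 other imprinted genes were listed, of which 52 are in the table and 27 passed the filter. The 25 others fell below it, 11 of them with 0 counts in every library. In total RNA 5 of the 27 rose and 4 fell, a share of 33.3% called where 29% of all tested genes were called, with a median log2 change of 0.18 (0.04 over all genes). In polysome RNA 4 rose and 7 fell (40.7% called, against 39.8% of all tested genes), with a median of 0.05 when a gene at 0 in both lines is left out and one at 0 in a single line is set to its bound (-0.01 over all genes). Both shares were near those of all genes.

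ZNF331, a zinc finger gene of an imprinted region on 19q13 (chr19:53519527-53580269, plus strand), differed in the opposite direction to MAGEL2. It had 643, 488 and 262 read pairs in shCtrl total RNA and 4, 1 and 6 in shPRRC2B total RNA. In polysome RNA it had 58, 63 and 54 against 0, 0 and 0. The lines did not overlap in either fraction.

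The log2 change of ZNF331 was -6.96 in total RNA (SE 0.37, edgeR adjusted p = 3.95e-09), and the summed counts gave a ratio of 0.00747 (95% interval 0.00372 to 0.0134). In polysome RNA the 95% interval of the ratio ended at 0.0189, counting error only (edgeR adjusted p = 2.15e-07). In total RNA, MAGEL2 and ZNF331 were thus each above 10 CPM in every library of 1 line and at or near 0 in the other.

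WT1, the Wilms tumour transcription factor, rose by 1.36 in total RNA (SE 0.23, edgeR adjusted p = 2.82e-04) and from 1.86 ± 0.271 to 5.31 ± 1.76 CPM in polysome RNA (edgeR adjusted p = 5.78e-04). INPP5F, an inositol phosphatase, rose in both fractions, by 0.64 and 0.86. FAM50B and L3MBTL1, the latter a chromatin reader, fell in both, with log2 changes of -0.53 and -1.10 for FAM50B and of -0.70 and -2.01 for L3MBTL1. GRB10, an adaptor of insulin signalling, was called down in total RNA (-0.65). With cultures within each line as a block, the difference between the lines rests on replicate 1 of each line. The total RNA changes were then 0.34 for INPP5F, -0.51 for FAM50B, -0.88 for L3MBTL1 and -0.51 for GRB10. Without any single total library the FAM50B call was lost (edgeR adjusted p between 0.0542 and 0.106), as was that of L3MBTL1 without any but shCtrl total replicate 2 (0.0657 to 0.142). The total RNA call of INPP5F was lost when either total library numbered 2 was left out (0.0811 for shCtrl and 0.0538 for shPRRC2B).

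IGF2R and ZDBF2 were called up in total RNA and down in polysome RNA. IGF2R, the receptor that clears IGF2, rose by 0.65 in total RNA (edgeR adjusted p = 0.00219) and changed by -0.75 in polysome RNA (adjusted p = 0.00280). ZDBF2 rose by 0.53 in total RNA (adjusted p = 0.0150) and changed by -1.002 in polysome RNA (adjusted p = 7.37e-04). The total RNA call of ZDBF2 was lost in 9 of the 12 fits that left out a library (log2 change 0.47 to 0.62 over the 12), and at 0.46 with scaling by total counts, 0.49 with TMM within each fraction, 0.49 with every gene tested, and 0.496 with the 6 total libraries alone. With the length trend removed, the total RNA calls of IGF2R (0.41) and ZDBF2 (0.32) were lost. The polysome call was then lost for IGF2R (-0.08, edgeR adjusted p = 0.745) and for ZDBF2 (-0.41, adjusted p = 0.0953), as was the TE call of IGF2R (-0.49, adjusted p = 0.0998). In TE, 1 of the 27 rose (MKRN3) and 5 fell, IGF2R, ZDBF2, UBE3A, RB1 and PPP1R9A, where 27.1% of all tested genes were called in either direction. The TE call of PPP1R9A (-1.03, edgeR adjusted p = 0.0460) was lost in 10 of 12 fits that left out a library (adjusted p 0.0644 to 0.111 in these), with the replicate block (0.0612) and with the length trend removed (-0.21, adjusted p = 0.725).

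Of 16 listed genes that set, read or keep imprints, 11 passed the filter. They include the methyltransferases DNMT1, DNMT3A and DNMT3B, the demethylases TET1, TET2 and TET3, the zinc finger ZNF445 and its partner TRIM28, which protect imprints, and CTCF, UHRF1 and SMCHD1. In total RNA 1 rose and 1 fell (18.2% called, against 29% of all tested genes). TET3 rose by 0.58 (SE 0.20, edgeR adjusted p = 0.0348), a call lost without any single total library (adjusted p between 0.0723 and 0.118) or shPRRC2B polysome replicate 2 (0.0597). It was also lost with scaling by total counts (edgeR adjusted p = 0.0522), in limma (0.0919) and with the length trend removed (0.36, edgeR adjusted p = 0.170). With the cultures block, which rests on replicate 1 of each line, the change was 0.78. ZNF445 fell from 97.4 ± 1.61 to 47.9 ± 1.34 CPM, a log2 change of -1.02 (SE 0.15, edgeR adjusted p = 5.29e-05).

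In polysome RNA all 11 fell, with a median log2 change of -1.08, where 21.4% of tested genes were called down. In TE 10 of the 11 were called down, with a median of -1.32 over the 11, where 16.4% of tested genes were called down. DNMT3A was lower but not called (-0.65, edgeR adjusted p = 0.0714). ZFP57, another zinc finger that protects imprints, was at 0 in all 12 libraries. These transcripts are long, with a median of 8833 bases against 3040 over the tested genes with a known length. With the length trend removed together with a replicate block, 6 of the 11 were called in polysome RNA and 6 in TE. These were the lowest counts among the settings tried. The plot of total against polysome changes shows these genes below the diagonal.

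**Figure D3:**
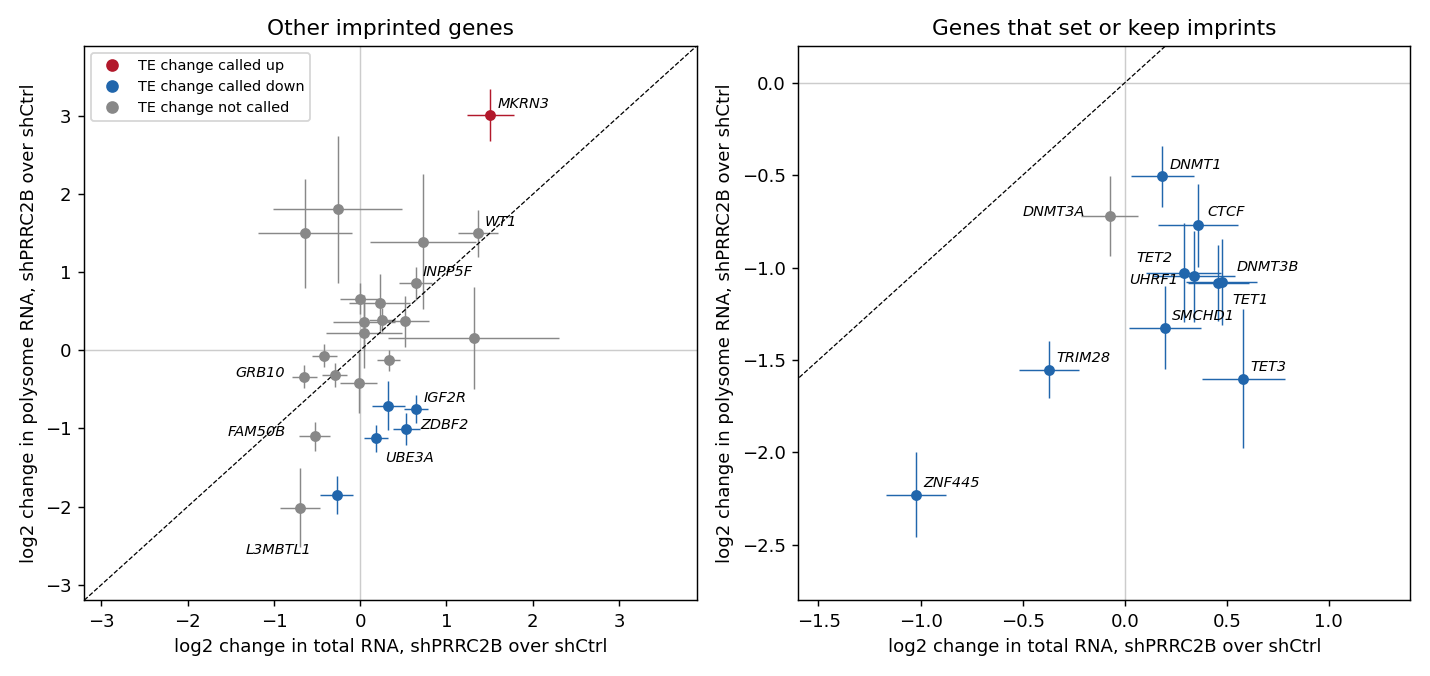
log2 change between the lines in total RNA (x axis) and in polysome RNA (y axis) for tested imprinted genes other than the members (left) and for 11 genes that set or keep imprints (right); bars are SE, the dashed line marks equal change, and ZNF331 and NNAT, at 0 in a polysome group, are left out. MKRN3 lies above the dashed line and called up in TE, and all 11 genes on the right lie below it.

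Genes close to the members were then read, to see which members sit among genes that differ between the lines. Within 500 kb of a member's start, 35 tested genes outside the imprinted lists were found. In total RNA 1 rose and 13 fell (40% called, against 29% of all tested genes), with a median log2 change of -0.55. In polysome RNA 2 rose and 17 fell (54.3% called, against 39.8% of all tested genes). Of these falls, 12 in each fraction lay around PEG3 alone, so the pooled shares do not hold for every member.

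Around PEG3, itself at 0, 12 of the 16 tested neighbours fell in total RNA, where 14.1% of all tested genes were called down, and 12 of 16 fell in polysome RNA, where 21.4% were called down. Most are zinc finger genes. ZNF471 changed by -3.07 (SE 0.41, edgeR adjusted p = 2.81e-05) at 333 kb from the start of PEG3, ZFP28 by -2.72 (adjusted p = 1.61e-05) and ZNF582 by -2.38 (adjusted p = 1.09e-04). ZNF71, the nearest called gene on the side of lower coordinates, changed by -1.97 (adjusted p = 2.42e-07) and ZNF264, the nearest on the other side, by -0.95 (adjusted p = 1.88e-04). SMIM17, the nearest tested gene, was not called (-1.19, adjusted p = 0.241). MIMT1 and USP29, imprinted with PEG3, were at 0 in all libraries. Zinc finger genes share sequence, and pairs that mapped to several places were not counted.

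Around IGF2 and H19, the total RNA changes of the 8 tested neighbours lay between -1.58 and 0.38 and did not pass the threshold in edgeR or DESeq2, with 1 at an unadjusted p under 0.05. Around MEST, the 5 tested neighbours lay between -0.43 and -0.09 in total RNA and did not pass in edgeR or DESeq2 (2 at an unadjusted p under 0.05), while 4 of 5 fell in polysome RNA (21.4% of all tested genes called down), among them TMEM209 (-1.89) and CEP41 (-0.92). Around DLK1, WDR25 rose (0.69, edgeR adjusted p = 0.00577) and SLC25A29 fell (-0.995, adjusted p = 7.64e-05) in total RNA. Of its 5 tested neighbours, 3 were not called, among them the nearest, BEGAIN (-0.55, edgeR adjusted p = 0.192). MAGEL2 and NDN had no tested neighbour but MKRN3.

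**Figure D4:**
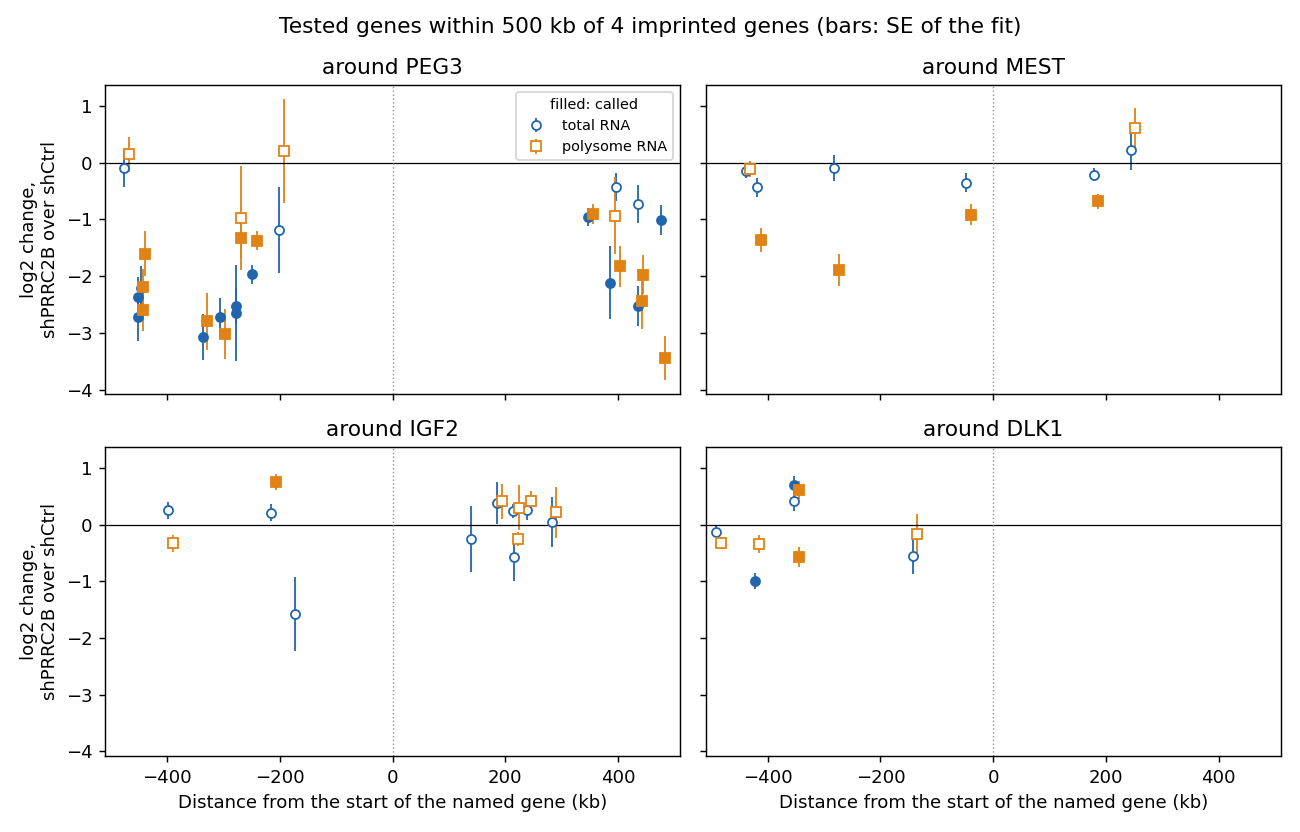
log2 change between the lines of the tested genes within 500 kb of PEG3, MEST, IGF2 and DLK1, against the distance of their start from that of the named gene in kb; circles are total RNA, squares polysome RNA, filled symbols are called and bars are SE, and values with a group at 0 are left out. Around PEG3, 12 of 16 neighbours fell in total RNA.

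The genes whose pattern over the 12 libraries was most like that of MAGEL2 lie on other chromosomes. By the mean absolute difference of log2(CPM + 1) values centred per gene, the closest were FBXL7 on chromosome 5 (0.287), CLCN4 on X (0.306), FZD10 on 12 (0.308), RIOX1 on 14 (0.310) and FLRT2 on 14 (0.331). FBXL7, a subunit of ubiquitin ligases, stood at 0.158 ± 0.118 CPM in shCtrl total RNA and at 10.7 ± 1.46 in shPRRC2B total RNA. FLRT2, a membrane protein of axon guidance, stood at 0.0495 ± 0.0429 and 21.4 ± 1.64 CPM. These levels were chosen for their likeness and are not tested.

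MAGEL2 also belongs to a small set of genes seen in a single line, counted with limits chosen after the values were seen. With at least 10 read pairs in each shPRRC2B total library and 0 in all 6 shCtrl libraries there were 25 genes. The same rule the other way gave 9. Set against the number of tested genes, these are 0.138% and 0.0495%. The rule takes raw counts, and depth differed. The shallowest total library held 9855734 read pairs in shCtrl and 15691850 in shPRRC2B, and median polysome depth was 1.31e+07 against 1.55e+07. The part of depth in these numbers was not tested. With at least 100 pairs, 2 (0.0110%) remained for shPRRC2B, MAGEL2 and the noncoding LINC02864. Their summed counts in shPRRC2B total RNA were 1057 and 856.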

How the data were processed

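The authors trimmed the read pairs with Trimmomatic 0.36, mapped them to GRCh38 with HISAT2 (2.1.0 in the submitters' processing notes) and deposited raw counts per gene name of GENCODE 38, made by featureCounts (Subread 2.0.1) without a strand option in the methods. Overlapping and antisense genes can therefore not be told apart. Counts from 12 libraries (9855734 to 20837542 per library) were analysed as deposited, with 0 columns of no library. The labels call the 3 samples of a group biological replicates.

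In R 4.3.3, genes were kept by filterByExpr of edgeR 4.0.16 (minimum count 10, 18166 genes), scaled by TMM over 12 libraries and fitted by glmQLFit with the 4 groups of line and fraction and no block. The steps were tested on simulated data. Alternatives used DESeq2 1.42.0, limma 3.58.1 on log2(CPM + 1), other scalings, filters and blocks, a lowess trend on length (span 0.3), no minimum log2 change, the 6 libraries of 1 fraction or line, and each library left out. Positions and lengths came from GENCODE 44.

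The members and lists were chosen with earlier results of these data known. Named were every member, PRRC2B and the 5 genes most like MAGEL2. Also named were the 12 listed imprinted or imprint control genes with the largest total RNA change among those called in total or polysome RNA. Of the 2 nearest tested neighbours of a member on either side, only some are named. Other genes named (UBE3A, COL1A1, the HEK293 markers, RB1, TMEM209, ZNF471, ZFP28, ZNF582, SLC25A29 and WDR25 among them) were chosen after their values were seen.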

Additional observations from a re-analysis of the deposited data

Results flagged for a closer look

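Among the 12 listed genes named for their total RNA change, the polysome-to-total ratio of 6 differed between the lines in the fit of all 12 libraries. Of all tested genes, 27.1% were called in TE. These 12 were chosen by their changes in total and polysome RNA, which make up the TE change. Their share called in TE can therefore not be set against that of all genes. On the log2 scale the TE change was 1.51 for MKRN3, -1.21 for ZNF445, -1.40 for IGF2R, -2.18 for TET3, -1.54 for ZDBF2 and -1.55 for DNMT3B. The edgeR adjusted p was 0.0159 for MKRN3, 0.00420 for ZNF445, 3.66e-04 for IGF2R, 0.00128 for TET3, 4.26e-04 for ZDBF2 and 8.86e-04 for DNMT3B. MKRN3 rose and the other 5 fell. With the length trend removed, the calls of ZNF445 (-0.24, adjusted p = 0.568) and IGF2R (-0.49, adjusted p = 0.0998) were lost. The ZNF445 call was also lost in limma (-0.65, adjusted p = 0.0544). Other genes named above also had a called TE change, among them UBE3A (-1.31), RB1 (-1.58), TMEM209 (-1.80) and SLC25A29 (0.65).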

How the results depend on the processing

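Of the 10 members, 8 were too thinly counted to pass the filter, and depth limits what can be said of them. Among members other than MAGEL2, 1 was called in total RNA, where 29% of all tested genes were called. In polysome RNA the count was 2, where 39.8% of all tested genes were called. That count includes MAGEL2, whose value there is a description because the gene was chosen for its absence from the same clone. Requiring at least 10 counts in every library left 0 members called in total RNA, polysome RNA and between fractions in either line, since no member meets it. Limma and the 6 libraries alone each gave 1 in polysome RNA, with MAGEL2 included. With cultures within each line as a block, the lines are compared through replicate 1 of each, so no count is given. Between fractions in shCtrl, testing every gene with at least 1 count gave 2 and the 6 libraries alone gave 0. The cause was not tested for the other settings.

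With 1 library left out, the count in total RNA was 0 to 2. It was 0 without shCtrl total 1, shCtrl total 2 or shPRRC2B total 2. It was 2 where IGF2 passed the filter through shCtrl total and was called. The count was 1 to 2 in polysome RNA with MAGEL2 included, 1 to 2 between fractions in shCtrl and 2 to 3 in shPRRC2B. The other imprinted genes called in total RNA numbered 5 to 8 (5 without shPRRC2B total 2) against 9. The imprint control genes called in total RNA numbered 1 to 2. They numbered 1 with scaling by total counts, limma or the length trend removed, with or without the replicate block, and 4 with no minimum log2 change. In polysome RNA they numbered 7 with the cultures block and 6 with the length trend removed with replicate block, which also gave 6 in TE. Neighbouring genes called fell to 6 in total RNA and 11 in polysome RNA under the filter of 10 counts in every library, which tests fewer genes. Around PEG3, 5 neighbours were tested under it and 4 of them fell in each fraction. The TE change of ZNF331, not called in edgeR, reversed to 1.35 in limma (adjusted p = 0.00173).

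Whether replicate numbers pair the samples could not be told from correlations. Same-numbered samples correlated between -0.007 and 0.05, and differently numbered ones between -0.06 and 0.057. The replicate block left 1 member called in total RNA and 2, MAGEL2 included, in polysome RNA, the counts without it.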
